A study of Canis lupus familiaris with 36 samples.

Results

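The data described here are the 12 RNA libraries taken after 24 h from a canine B-cell lymphoma line, out of 36 libraries in the series, and the question is which genes answered a pair of kinase inhibitors differently from the sum of the 2 single answers. CLBL-1 is an established line from a dog with diffuse large B-cell lymphoma, so all values come from the cells of 1 line. The cells were incubated with DMSO alone, with 1 µM Ibrutinib (Ibr), with 5 µM AS-605240 (AS) or with 1 µM Ibrutinib and 5 µM AS-605240 together (Ibr + AS). Each of these 4 groups has 3 libraries, from passages p121, p126 and p128, which are replicates 1, 2 and 3. Control cells received the DMSO concentration of the combined treatment, and the DMSO concentration of the single-drug wells is not given in the sources used here. The libraries taken after 48 h (12) and 72 h (11 used) come from the same 3 passages and give the same comparison at later times.

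Ibrutinib inhibits BTK, the kinase that carries the signal of the B-cell receptor towards calcium release, NF-kB and MAP kinase signalling. AS-605240 inhibits PI3Kγ, a lipid kinase whose product brings AKT, and BTK itself, to the plasma membrane. AKT and mTOR promote growth and lipid synthesis and keep FOXO transcription factors out of the nucleus. Survival and division of many B-cell lymphomas depend on both branches, and the study was designed to find the genes behind their joint inhibition.

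For each gene the log2 change under Ibr and the log2 change under AS, both against DMSO, were added and set against the log2 change under Ibr + AS. The difference, Ibr + AS − Ibr − AS + DMSO, is called the departure from additivity below. A departure of 0 means that the 2 fold changes multiply. A gene whose departure has the sign of the summed single effects goes beyond the sum, and a gene with the opposite sign falls short of it. A gene was called when its adjusted p was at most 0.05 and its departure was above 1 or below -1 on the log2 scale.

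The libraries held between 10041386 and 14703839 reads on genes, and 3 reads, the floor used here, correspond to 0.198 to 0.304 CPM (reads of a gene relative to the library size after scaling with TMM factors). TMM factors ran from 0.902 in Ibr + AS replicate 1 to 1.036 in DMSO replicate 1. Ibr + AS replicate 1 also had the highest share of reads on its 50 most abundant genes, 23.6% against 16.7% to 22.1% elsewhere. The B-cell markers TNFRSF13C (the BAFF receptor), DLA-DRA and DLA-DQA1 (MHC class II) and TCF4 were expressed in every group, with means over the 12 libraries of 172, 3369, 775 and 95.8 CPM, while NFAM1 was at 0.0119 CPM. The T-cell and melanocyte genes CD226, IL2RB, TCF7, MLANA and SOX10 lay at or under 0.0581 CPM, and PMEL was at 1.20 CPM. Counts are relative to the library, so in these bulk samples fewer cells of a kind and less RNA per cell cannot be told apart.

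For most genes no departure was called, which does not show that they followed the sum. Of 16928 genes tested, 228 (1.35%) departed from it past both limits, 168 (0.992%) with a higher level under Ibr + AS than the sum predicts and 60 (0.354%) with a lower one. With the adjusted p alone, 1153 genes (6.81%) departed, 663 higher (3.92%) and 490 lower (2.89%), and 1907, 375 and 465 genes without replicate 1, 2 or 3. Over the 10766 genes that averaged 1 CPM or more, 192 were called (1.78%), the median departure was -0.0066, and the middle 50% of genes lay between -0.19 and 0.20. Within 0.2 log2 of additivity lay 5521 of them (51.3%). The calls rest on 3 passages. Without replicate 2 the count of higher genes fell to 92 and that of lower genes was 65, and without the passage term in the model the counts were 105 and 38.

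Among the same libraries, 251 genes (1.48%) were called for Ibr against DMSO, 55 (0.325%) for AS and 1554 (9.18%) for Ibr + AS. Thus 152 of the 1554 genes changed by the combination (9.78%) also had a called departure, and for the others the departure did not pass both limits. The same DMSO, Ibr and AS libraries enter the single effects and the departure, so their values are set side by side and were not correlated.

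**Figure D1:**
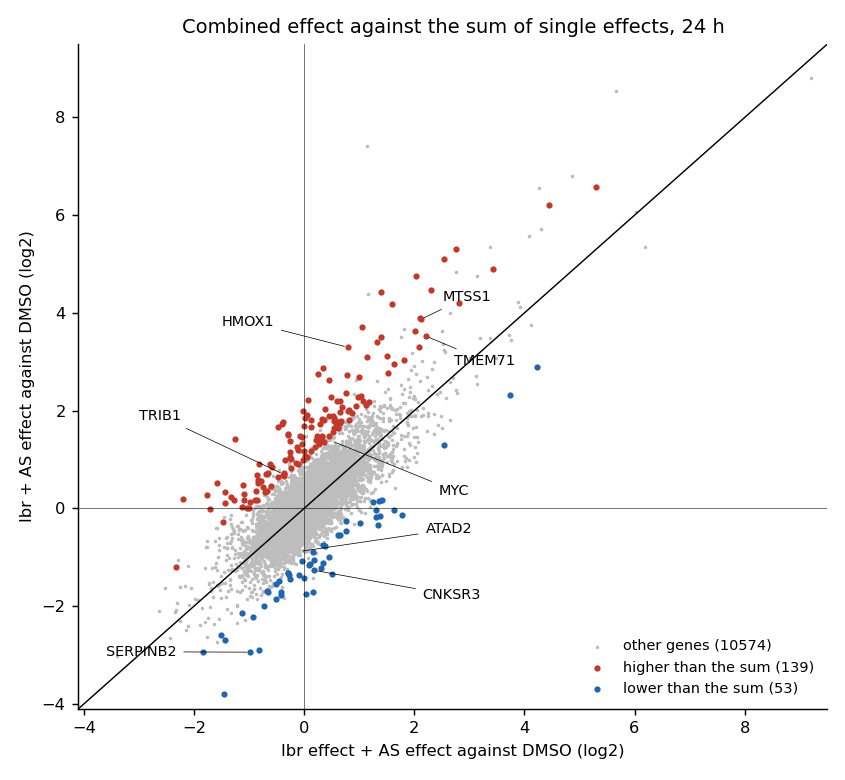
Each point is a gene averaging 1 CPM or more. The x axis gives the sum of the Ibr and AS effects and the y axis the Ibr + AS effect, all log2 against DMSO at 24 h, and the diagonal is additivity. Red points (139) are called genes above the sum and blue points (53) called genes below it, and most of them have a sum near 0.

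The median single-drug changes of the called genes lay near 0. Over the 168 higher genes the median log2 change was 0.056 under Ibr, -0.12 under AS and 1.55 under Ibr + AS. Over the 60 lower genes it was 0.047, 0.17 and -1.24. In 148 of the 228 genes (64.9%) neither single drug passed the adjusted p, and in 96 (42.1%) the combination passed both limits as well. Over all genes Ibr passed the adjusted p in 13.6% and AS in 5.23%, so single-drug changes were more frequent among the called genes. A single drug passed both limits in 34 of the 228 (14.9%), beside 1.48% of all genes for Ibr and 0.325% for AS. Ibr + AS differed from Ibr and also from AS past both limits in 156 (68.4%), beside 3.34% of all genes called against Ibr and 5.39% against AS. These shares describe genes chosen by the departure and are not tests of their own.

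By sign alone, 104 of the 228 went beyond the sum and 10 changed with the sum but by less. In 114 the log2 change under the combination had the sign opposite to the sum, whether or not it passed a limit. The DMSO, Ibr and AS libraries enter the sum and the departure with opposite signs. Noise in them therefore moves selected genes towards falling short, and the split is a description only. In 63 genes (27.6%) the sum was smaller than its standard error, so the side it lay on was not determined. The balance turned in some other settings, with 90 genes beyond and 62 short of or against the sum by DESeq2, 89 and 83 with the filter of filterByExpr, 82 and 75 without replicate 2, 106 and 81 without replicate 3, and 647 and 506 at the adjusted p alone. It did not turn without replicate 1 or without the passage term. The Ibr + AS effect was larger in size than the sum in 162 genes (71.1%), beside 60% of all genes with at least 1 CPM. Of the 34 genes that a single drug changed past both limits, 23 went beyond the sum and 11 fell short of it.

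Most of the called genes carry no symbol here. Of the tested genes 1031 could be paired with a symbol, and 11 of the 228 called genes are among these. They are 1.07% of the 1031, with 6 higher (0.582%) and 5 lower (0.485%). For this reason the named genes are the largest among those with a symbol and at least 1 CPM, and larger departures exist among genes known here only by identifier. With the adjusted p alone, 48 of the 880 genes with a symbol and at least 1 CPM were higher (5.45%) and 47 lower (5.34%), and all genes of that level gave 5.89% and 4.49%.

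HMOX1, heme oxygenase 1, had the largest departure among genes with a symbol and at least 1 CPM. Its level was 3.27, 3.70 and 4.07 CPM in DMSO replicates 1 to 3 and 7.63, 6.32 and 6.70 CPM under Ibr. It was 4.04, 3.06 and 3.18 CPM under AS and 64.1, 26.5 and 24.5 CPM under Ibr + AS. The AS libraries overlapped with DMSO, the Ibr libraries lay above both, and all Ibr + AS libraries lay far above the other 9. The log2 change was 0.90 under Ibr (adjusted p = 0.139), -0.11 under AS and 3.30 under Ibr + AS, and the departure was 2.50 ± 0.47 (SE, adjusted p = 0.012). It was positive in every passage, at 2.76, 2.32 and 2.21. Without the passage term it was 2.57 with an adjusted p of 0.0697, so the call depends on that term.

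MTSS1, a scaffold that binds actin and curves membranes, was raised by each drug and far more by the pair. Its level was 3.48, 2.97 and 4.07 CPM with DMSO and 10.2, 8.401 and 8.83 CPM with Ibr. With AS it was 6.404, 5.27 and 5.49 CPM and with Ibr + AS 61.6, 53.4 and 38.4 CPM. The 4 groups did not overlap, in the order DMSO, AS, Ibr, Ibr + AS. The log2 changes of 1.40 for Ibr and 0.72 for AS sum to 2.12, the combined change was 3.87, and the departure was 1.75 ± 0.23 (adjusted p = 1.85e-10).

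TMEM71, which encodes a transmembrane protein, had the same order of groups. DMSO libraries held 8.24, 7.92 and 7.97 CPM, Ibr libraries 30.1, 24.9 and 24.9 CPM, AS libraries 12.2, 9.78 and 11.6 CPM and Ibr + AS libraries 103, 105 and 71.5 CPM. The single changes were 1.73 and 0.48, the combined change was 3.53, and the departure was 1.32 ± 0.17 (adjusted p = 3.02e-10). Here, unlike in most called genes, each single drug already had an effect at an adjusted p of at most 0.05, as it had for MTSS1.

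TRIB1, a pseudokinase that brings target proteins to a ubiquitin ligase, moved against its sum. It was at 30.97, 27.3 and 26.6 CPM with DMSO, 32.6, 22.8 and 24.9 CPM with Ibr, 25.9, 21.6 and 22.3 CPM with AS and 49.8, 45.6 and 41.8 CPM with Ibr + AS. The Ibr libraries overlapped with DMSO and with AS, and every AS library lay below every DMSO library. The Ibr + AS libraries lay above them all. The sum of single changes was -0.37 and the combined change 0.70, which gave a departure of 1.07 ± 0.15 (adjusted p = 1.22e-08). In the fit of 35 libraries over all times the departure was 1.04 with an adjusted p of 0.102.

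TREML2, a receptor of the TREM family found on B cells and other leukocytes, and DEPTOR, an inhibitor of the mTOR kinase, complete the called genes with a symbol in the upward direction. TREML2 rose from 3.98, 5.81 and 6.02 CPM with DMSO to 11.98, 13.6 and 15.02 CPM with Ibr + AS, while Ibr gave 6.70 to 7.51 and AS 4.72 to 5.20 CPM. Its departure was 1.00 ± 0.24 (adjusted p = 0.00125), and it lost the call without replicate 2 (0.90, adjusted p = 0.136) and without replicate 3 (0.84, adjusted p = 0.122). DEPTOR was a low gene, at 1.92, 1.91 and 1.24 CPM with DMSO and 2.38, 4.14 and 5.30 CPM with Ibr + AS, with 1.62 to 2.03 under Ibr and 1.35 to 2.15 under AS. Its departure of 1.17 ± 0.38 (adjusted p = 0.0359) fell to 0.80 without replicate 2 (adjusted p = 0.608), and DESeq2 gave 1.14 with an adjusted p of 0.204. The smallest of the 3 within-passage departures was 0.49 for TREML2 and 0.60 for DEPTOR.

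**Figure D2:**
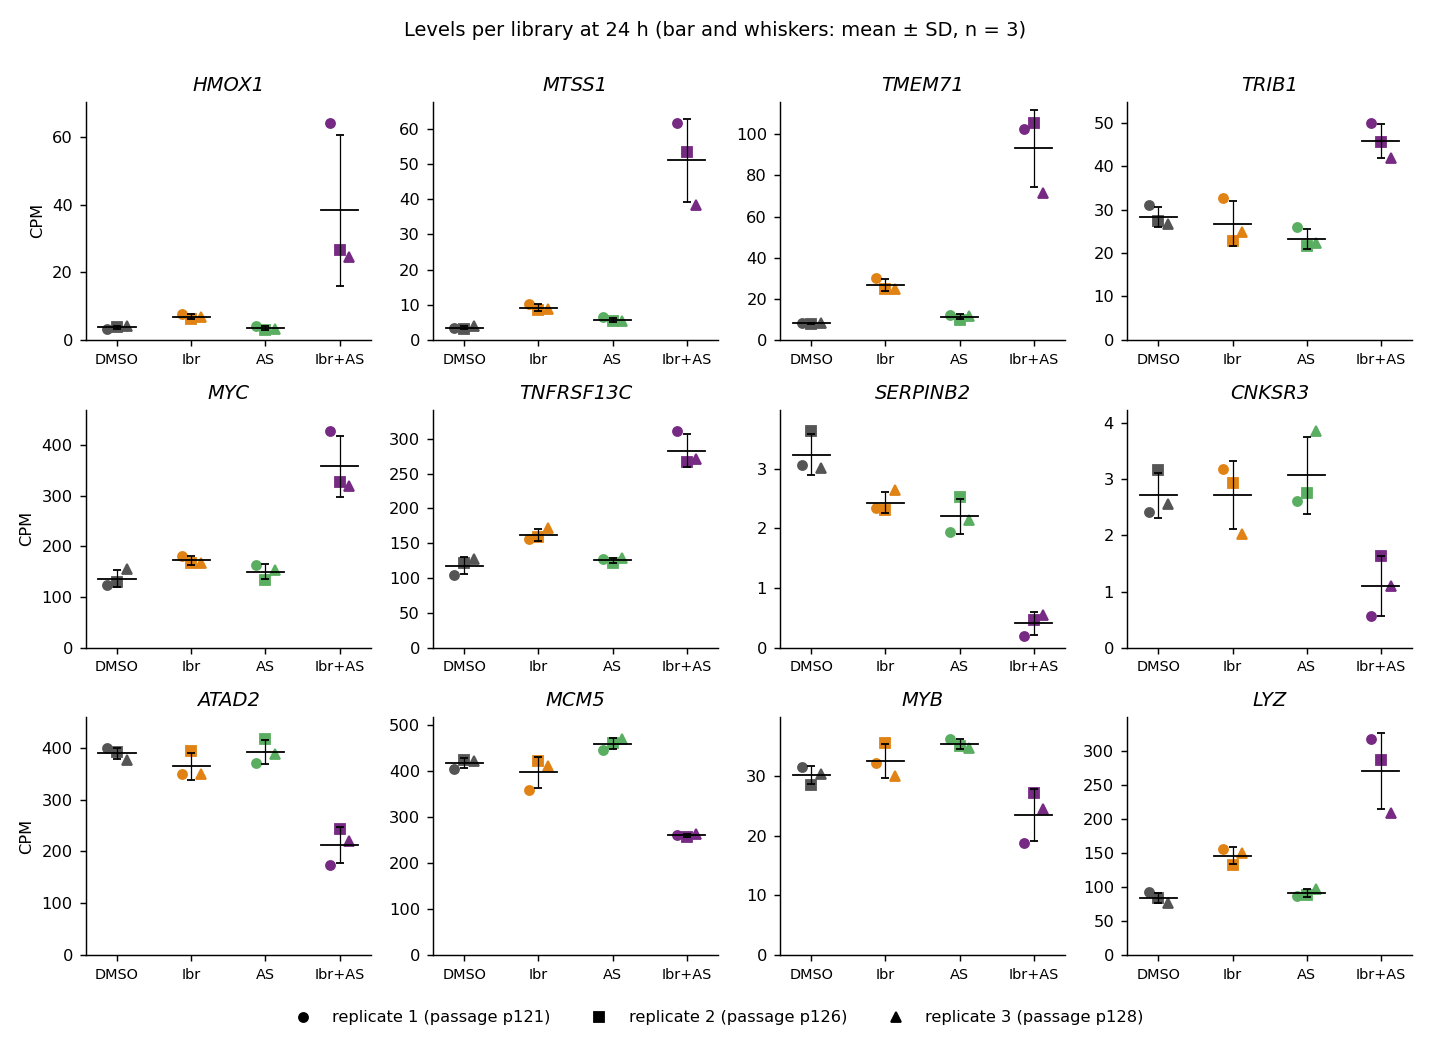
Level of 12 genes in each of the 12 libraries at 24 h in CPM, with linear axes from 0, the mean as a bar and the SD as whiskers (n = 3). In the first 6 genes and in LYZ the Ibr + AS libraries lie above all others, and in SERPINB2, CNKSR3, ATAD2, MCM5 and MYB they lie below all others.

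Below the log2 limit but at the adjusted p, further abundant genes departed upwards. MYC, the transcription factor that drives growth and ribosome production, stood at 123, 129 and 155 CPM with DMSO, 182, 168 and 167 CPM with Ibr, 163, 134 and 153 CPM with AS and 428, 327 and 320 CPM with Ibr + AS. Ibr alone changed it by 0.34, AS by 0.14 and the combination by 1.39, which left a departure of 0.91 ± 0.13 (adjusted p = 1.48e-08). The departure was 0.83, 0.91 and 0.96 in the 3 passages.

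TNFRSF13C, the receptor for the B-cell survival factor BAFF, went from 118 ± 12.5 CPM (SD, n = 3) with DMSO to 283 ± 24.3 CPM with Ibr + AS, with 162 ± 8.63 CPM under Ibr and 125.6 ± 3.84 CPM under AS. Its departure was 0.71 ± 0.13 (adjusted p = 5.93e-06). IRF5, a transcription factor of the innate response, went from 113 ± 2.16 CPM to 294 ± 20.1 CPM, with 151 ± 2.73 CPM under Ibr and 136 ± 12.2 CPM under AS, and departed by 0.70 ± 0.13 (adjusted p = 8.37e-06). In both genes Ibr raised the level alone at an adjusted p of at most 0.05, AS alone did not pass, and the combination went beyond the sum.

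SQSTM1, the autophagy receptor p62, showed the reverse split of the single drugs. It was at 73.3 ± 3.83 CPM with DMSO, 76.5 ± 1.54 CPM with Ibr, 97.1 ± 5.46 CPM with AS and 167 ± 20.3 CPM with Ibr + AS. The change of 0.40 under AS passed the adjusted p (0.00159), that of 0.06 under Ibr did not, and the departure was 0.72 ± 0.13 (adjusted p = 1.1e-05). STK38 (a kinase of the NDR family) departed by 0.88 ± 0.16, TRABD by 0.88 ± 0.13 and WFS1, a protein of the endoplasmic reticulum membrane, by 0.85 ± 0.13. The sums were 0.15, 0.22 and 0.39, and that of STK38 was smaller than its standard error. TAGAP, a GTPase-activating protein of lymphocytes, departed by 0.90 ± 0.17, but its Ibr + AS libraries held 33.5, 65.5 and 52.6 CPM, and replicate 1 lay within the DMSO range of 33.2 to 34.2 CPM.

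LYZ, lysozyme, is a myeloid marker that some B cells express as well. Its level was 92.4, 83.4 and 76.9 CPM with DMSO, 157, 132 and 150 CPM with Ibr, 86.8, 88.9 and 97.3 CPM with AS and 318, 286 and 209 CPM with Ibr + AS. The departure was 0.76 ± 0.14 (adjusted p = 2.66e-05), at 1.11, 1.02 and 0.14 in the 3 passages, so that passage p128 contributed little. CSF2RB, the other myeloid gene tested, was at 8.68 to 11.2 CPM with DMSO and 10.6 to 16.9 CPM with Ibr + AS, and TREM2 and IFNG had fewer than 2 reads. The part of other cell types in these values was not tested.

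Among the downward departures, SERPINB2, an inhibitor of plasminogen activators, was at 3.05, 3.63 and 3.01 CPM with DMSO and 0.19, 0.47 and 0.55 CPM with Ibr + AS, which are 2 to 7 reads per library. Ibr libraries held 2.31 to 2.64 CPM and AS libraries 1.94 to 2.52 CPM, below every DMSO library and above every Ibr + AS library. The departure was -1.96 ± 0.45 (adjusted p = 0.000885), beyond a sum of -0.98.

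CNKSR3, a scaffold protein of the CNK family, SMC1B, a cohesin subunit of meiotic cells, and RGS22, of the family that regulates G-protein signalling, were low genes as well. CNKSR3 was at 2.42, 3.17 and 2.57 CPM with DMSO and 0.57, 1.64 and 1.11 CPM with Ibr + AS, and its departure of -1.45 ± 0.37 (adjusted p = 0.00404) had an adjusted p of 0.0543 without replicate 1 and 0.11 without replicate 3. SMC1B fell below the sum by -1.23 ± 0.36 (adjusted p = 0.0176), although Ibr + AS at 1.51 ± 0.32 CPM was close to DMSO at 2.08 ± 0.60 CPM, with 2.83 ± 0.53 CPM under Ibr and 2.67 ± 0.07 CPM under AS. RGS22 departed by -1.04 ± 0.32 (adjusted p = 0.0238), but in passage p126 the departure was 0.11. SMC1B had an adjusted p of 0.16 or more without replicate 2 or 3, and RGS22 of 0.588 without replicate 3. SERPINB2 passed the adjusted p in each of 10 alternative fits on the log2 scale. The fifth downward call with a symbol, TRERF1, a transcription regulator, was named after its values were seen, and averaged 0.59 CPM with DMSO and 0.29 CPM with Ibr + AS (departure -2.09 ± 0.68, adjusted p = 0.0401).

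**Figure D3:**
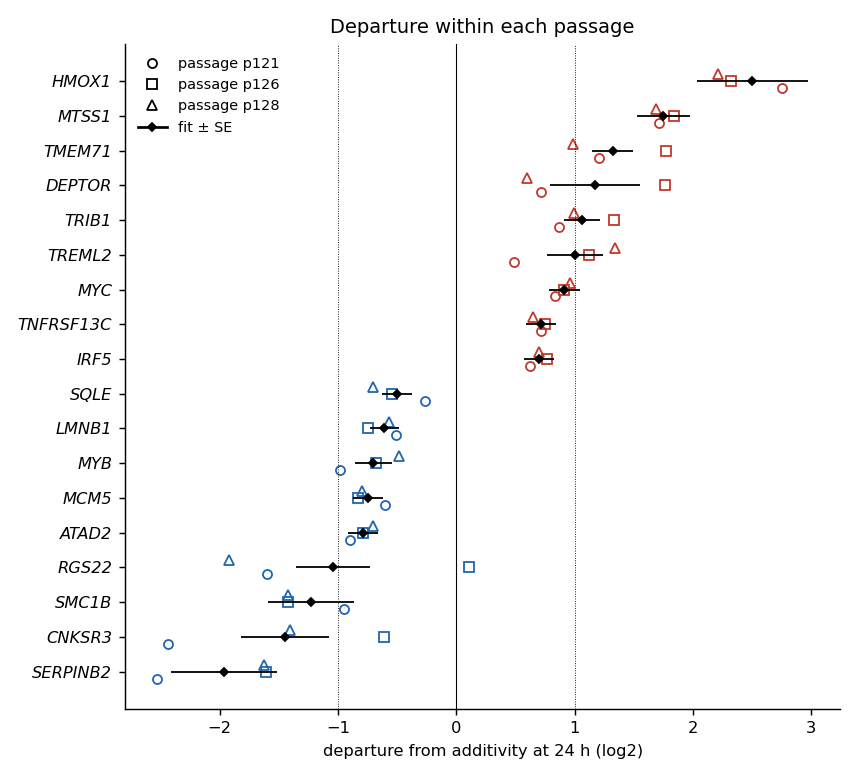
Departure from additivity (log2) of 18 named genes, with open symbols for the value within each passage from log2 CPM and a black diamond with its SE for the fit over the 3 passages. Dotted lines mark the log2 limits of 1 and -1. All open symbols lie on the side of the fit, apart from RGS22 in passage p126. RGS22, CNKSR3, DEPTOR, SQLE and TREML2 spread most for their size.

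Abundant genes of DNA replication and the nucleus departed downwards by less than the log2 limit but with small errors. ATAD2, a chromatin ATPase with a bromodomain, was at 399, 391 and 377 CPM with DMSO, 349, 394 and 350 CPM with Ibr, 371, 417 and 388 CPM with AS and 174, 243 and 221 CPM with Ibr + AS. Neither single drug passed the adjusted p, the combination changed the gene by -0.88, and the departure was -0.79 ± 0.12 (adjusted p = 2.61e-07). MCM5, a subunit of the replicative helicase, was at 406, 425 and 423 CPM with DMSO and 261, 258 and 264 CPM with Ibr + AS. Its level was 360 to 423 CPM under Ibr and 447 to 471 CPM under AS, and AS alone gave a log2 change of 0.14 that did not pass, so that the departure of -0.75 ± 0.12 (adjusted p = 9.65e-07) exceeded the combined change of -0.68. LMNB1, lamin B1, was at 775 ± 13.8 CPM with DMSO and 443 ± 17.9 CPM with Ibr + AS, with a departure of -0.61 ± 0.12 (adjusted p = 0.000123).

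MYB, the transcription factor of immature and dividing blood cells, averaged slightly above DMSO under each single drug and below it under the pair. Neither single change passed (0.11 under Ibr, adjusted p = 0.617, and 0.23 under AS, adjusted p = 0.243). DMSO libraries held 31.5, 28.5 and 30.3 CPM, Ibr libraries 32.2, 35.5 and 29.9 CPM, AS libraries 36.2, 35.1 and 34.7 CPM and Ibr + AS libraries 18.7, 27.2 and 24.4 CPM. All Ibr + AS libraries lay under all others, and the departure was -0.70 ± 0.15 (adjusted p = 0.000491) with a combined change of -0.36. SASH1, an adaptor protein, and NFIB, a transcription factor, were at a lower level with the pair than with Ibr alone. SASH1 was at 28.3 ± 2.66 CPM with DMSO, 38.7 ± 3.08 CPM with Ibr, 32.3 ± 2.40 CPM with AS and 26.8 ± 2.81 CPM with Ibr + AS, a departure of -0.72 ± 0.15 (adjusted p = 0.000251). NFIB was at 6.97 ± 0.69, 10.9 ± 2.21, 9.43 ± 0.79 and 8.73 ± 1.51 CPM in the same order, so that a sum of 1.04 met a combined change of 0.31, a departure of -0.73 ± 0.22 (adjusted p = 0.0176). NFIB under the pair did not pass against Ibr (adjusted p = 0.136), and its departure had an adjusted p of up to 0.323 over the alternatives. SERPINB2 and LMNB1, in contrast, went beyond a negative sum. In ATAD2 and in BEND4 (-0.79 ± 0.19, adjusted p = 0.00175) the sum was smaller than its standard error. The departure of BEND4 was -1.42, -0.92 and -0.13 in the 3 passages, and its adjusted p reached 0.307 over the alternatives.

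PRDM11, of the PRDM family of transcriptional regulators, and KIF27, a kinesin, complete the named downward genes. PRDM11 was at 5.45 ± 0.65 CPM with DMSO, 7.15 ± 1.04 CPM with AS and 4.77 ± 1.42 CPM with Ibr + AS, and departed by -0.87 ± 0.25 (adjusted p = 0.0162). KIF27 was at 11.1 ± 1.54 CPM with DMSO and 7.83 ± 0.94 CPM with Ibr + AS, and departed by -0.73 ± 0.21 (adjusted p = 0.0131). Their Ibr + AS libraries lay close to or below DMSO, but in PRDM11 the combined change of -0.17 did not pass. Of 10 alternatives, the departure passed the adjusted p in 4 for PRDM11 and in 5 for KIF27, and without replicate 2 the adjusted p was 0.359 and 0.55.

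Larger departures were found among genes known here by identifier. ENSCAFG00000028195 was at 0.92, 0.66 and 0.53 CPM with DMSO, 1.76, 1.93 and 3.55 CPM with Ibr, 1.26, 0.46 and 1.03 CPM with AS and 24.2, 18.3 and 16.8 CPM with Ibr + AS. Its departure was 2.73 ± 0.46 (adjusted p = 2.45e-06), and in the fit of 35 libraries the adjusted p was 0.219. ENSCAFG00000011740 was at 3.56 to 7.98 CPM with Ibr + AS and 0.81 to 1.46 CPM with Ibr, but all AS libraries held 3 reads or fewer, so its fitted departure of 3.04 ± 0.77 (adjusted p = 0.00356) depends on the handling of low counts.

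Among genes without a symbol that averaged 1 CPM or more, the 2 largest downward departures called were those of ENSCAFG00000013904 and ENSCAFG00000018937, each beyond a negative sum. ENSCAFG00000013904 was at 16.1, 25.7 and 22.1 CPM with DMSO, 9.05, 15.5 and 8.12 CPM with Ibr, 11.6, 17.96 and 15.5 CPM with AS and 0.38, 1.64 and 2.45 CPM with Ibr + AS. Its departure was -2.34 ± 0.28 (adjusted p = 1.13e-07). ENSCAFG00000018937 was at 30.8, 27.3 and 24.97 CPM with DMSO and 1.90, 3.59 and 5.53 CPM with Ibr + AS, with 19.7 to 20.5 CPM under Ibr and 20.02 to 23.6 CPM under AS, a departure of -2.07 ± 0.22 (adjusted p = 4.25e-09). In each of them the single drugs lowered the level modestly and the pair took it far lower, in every passage.

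Gene lists were described by counts at the adjusted p among members with at least 1 CPM. All genes at that level gave 5.89% higher and 4.49% lower. The lists were chosen with earlier results of these data known, and they share members. SQSTM1, TNFRSF13C, IRF1, TRIB1 and IER3, for example, are each counted again in a further list. The counts are therefore descriptions and not tests of a list, and those of different lists are not independent. Genes of DNA replication and repair departed downwards in 8 of 22 members by edgeR (7 by DESeq2) and upwards in 0, also at an unadjusted p under 0.05, and 21 of the 22 had a negative departure, with a median of -0.22. The 8 were ATAD2, MCM5, FANCC and RMI1 (repair proteins), DSCC1 (a cohesion factor), POLI (a polymerase), and ZNF367 and TCF19. The median change under Ibr was -0.030, under AS 0.053 and under Ibr + AS -0.25, so the single drugs left this list near 0. Genes of the cell cycle and mitosis departed downwards in 5 of 24 members by edgeR (3 by DESeq2) and upwards in 0, also at an unadjusted p under 0.05, with a median of -0.21. The 5 were LMNB1, FBXO5 (an inhibitor of the anaphase-promoting complex, -0.52 ± 0.13), CENPM (a centromere protein), CEP78 (a centrosome protein) and CDK2, the kinase of S-phase entry (-0.43 ± 0.14, adjusted p = 0.0375).

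Among immediate early genes and regulators around MYC and MYB, 5 of 10 departed upwards by edgeR (3 by DESeq2) and 1, MYB, downwards, with a median of 0.51. The upward members were TRIB1, MYC, IER3 (0.81 ± 0.23), NAB2 (0.74 ± 0.20) and TOB2 (0.62 ± 0.19). NAB2, a repressor of EGR factors, was lowered by Ibr (-0.92) and AS (-0.28) but only by -0.45 under the pair, and so fell short of its sum. IER3, an early stress gene, was at 7.67 ± 0.80 CPM with DMSO and 9.998 ± 2.27 CPM with Ibr + AS, and passed in 5 of 10 alternatives.

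In the list of PI3K, AKT, mTOR and FOXO signalling, 4 of 20 members departed upwards by edgeR (2 by DESeq2) and 0 downwards, also at an unadjusted p under 0.05, with a median of 0.11. They were DEPTOR, TRIB1, PRR5 (a subunit of mTOR complex 2, 0.64 ± 0.13) and FOXP4 (a forkhead factor outside the FOXO family, 0.46 ± 0.14). The list lacks the AKT genes and PIK3CG, the gene of PI3Kγ, so it does not describe the core of the pathway. PIK3R1, a regulatory subunit of PI3K, was at 64.9 ± 1.38, 62.4 ± 4.29, 63.0 ± 0.99 and 65.9 ± 5.09 CPM with DMSO, Ibr, AS and Ibr + AS. Its departure of 0.12 ± 0.14 did not pass (adjusted p = 0.759). The study names PIK3R5 and PIK3R6 as the regulatory partners of PI3Kγ. Of the B-cell receptor and calcium list, 3 of 19 members departed upwards, TAGAP, TNFRSF13C and DEF6 (a guanine nucleotide exchange factor, 0.57 ± 0.13), and 1 downwards, the phosphatase gene PTPRJ (-0.61 ± 0.18, adjusted p = 0.0481). The median of this list was -0.0086, and BTK and SYK are not among its members.

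NF-kB and TNF genes split into an upward and a downward side. TNF itself (0.65 ± 0.19), IER3, TNFRSF13C, SQSTM1 and IRF1 (0.48 ± 0.14) departed upwards, which is 5 of 16 by edgeR (3 by DESeq2), and TNFAIP3, an inhibitor of NF-kB, downwards (-0.54 ± 0.15). The median of the list was nevertheless -0.12, since 10 of the 16 were negative. In the cytokine and interferon list, IRF5 and IRF1 departed upwards and the interferon gamma receptor gene IFNGR1 downwards (-0.39 ± 0.13), out of 12 members. DDX58, an RNA sensor of that list, had a departure of -0.48 ± 0.24 that did not pass (adjusted p = 0.277).

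**Figure D4:**
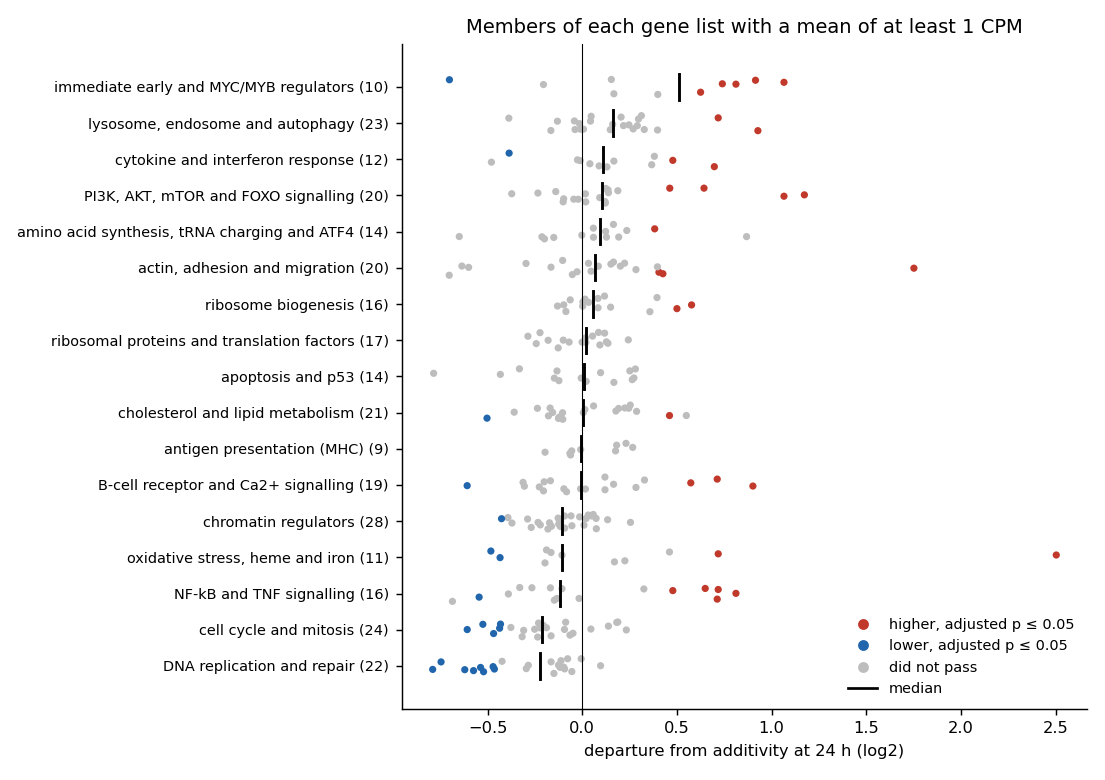
Departure (log2) of every list member averaging 1 CPM or more, in lists ordered by their median (black bar), with the number of members in brackets. Coloured points passed an adjusted p of at most 0.05. DNA replication and cell cycle genes lie mostly left of 0 with medians of -0.22 and -0.21, and immediate early genes lie mostly right of 0 with a median of 0.51.

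In some lists no call was made. No member departed at the adjusted p among 9 genes of antigen presentation, 14 of apoptosis and p53 or 17 ribosomal proteins and translation factors, by edgeR. At an unadjusted p under 0.05 edgeR gave 1 of the antigen presentation genes, 6 of the apoptosis genes and 1 of the ribosomal list, and DESeq2 gave 0, 1 and 1 at its adjusted p. The median change of the antigen presentation genes was 0.61 under the pair, 0.20 under Ibr and 0.22 under AS, with CANX, calnexin, at -0.76 under the pair, and their median departure was -0.0081. In that list, TAP1, the peptide transporter, was at 475 ± 6.18, 569 ± 18.7, 548 ± 29.4 and 770 ± 55.2 CPM in the order DMSO, Ibr, AS, Ibr + AS (departure 0.23 ± 0.12, adjusted p = 0.343), and the class I gene DLA88 departed by 0.27 ± 0.13 (adjusted p = 0.289). RPL8 and PABPC1, of the ribosomal list, had departures of 0.24 ± 0.13 and -0.29 ± 0.13 that did not pass. In the apoptosis list, BCL2, the survival protein, departed by -0.43 ± 0.17 (adjusted p = 0.117), at 20.02 ± 1.25 CPM with DMSO and 17.9 ± 2.28 CPM with Ibr + AS, and DAPK1 by -0.78 ± 0.29 (adjusted p = 0.213), with Ibr + AS libraries at 167, 261 and 330 CPM. DESeq2 called DAPK1 at the adjusted p (-0.80, adjusted p = 0.00448). A p that misses the limit does not show that these genes were additive.

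Among metabolic, stress and structural lists, lysosome and autophagy genes gave 2 of 23 upwards (SQSTM1 among them) and 0 downwards, with a median of 0.16. Actin, adhesion and migration genes gave 3 of 20 upwards, MTSS1, MYH9 (non-muscle myosin, 0.41 ± 0.13) and SUN2 (a nuclear envelope protein, 0.43 ± 0.12). NEBL, an actin-binding protein of that list, was at 1.64 ± 0.19 CPM with DMSO, 3.95 ± 0.65 CPM with Ibr and 2.04 ± 0.28 CPM with Ibr + AS, a departure of -0.70 ± 0.38 that did not pass (adjusted p = 0.35). Oxidative stress, heme and iron genes gave HMOX1 and SQSTM1 upwards and ACO1 (-0.48 ± 0.14) and OXR1 (-0.43 ± 0.13) downwards, 4 of 11 members by edgeR and 3 by DESeq2. Ribosome biogenesis gave BYSL (0.50 ± 0.13) and EXOSC4 (0.58 ± 0.14) upwards out of 16, and the amino acid list gave PYCR3 (proline synthesis, 0.38 ± 0.13) out of 14, in which GLS2 (0.87 ± 0.53) and CDO1 (-0.65 ± 0.39) did not pass.

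Cholesterol and lipid genes gave 1 upwards, CERK (ceramide kinase, 0.46 ± 0.14), and 1 downwards out of 21. The latter was SQLE, squalene epoxidase of cholesterol synthesis, which each drug lowered and the pair lowered further. Its level was 767, 660 and 691 CPM with DMSO, 501, 499 and 540 CPM with Ibr, 522, 563 and 526 CPM with AS and 284, 292 and 252 CPM with Ibr + AS. The sum of -0.85 met a combined change of -1.35, a departure of -0.50 ± 0.12 (adjusted p = 0.00263). PPARD, a lipid-sensing nuclear receptor, had 0.55 ± 0.21 (adjusted p = 0.11). Chromatin regulators gave 1 of 28, ADNP (-0.43 ± 0.13, adjusted p = 0.0263), while its paralog ADNP2 had -0.39 ± 0.15 (adjusted p = 0.0871), and 19 of the 28 were negative.

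Of further genes followed for their part in the study, DSE, dermatan sulfate epimerase, was at 359 ± 11.4 CPM with DMSO, 465 ± 15.7 CPM with Ibr, 377 ± 17.1 CPM with AS and 385 ± 55.8 CPM with Ibr + AS. The rise under Ibr passed the adjusted p (0.000708) and was not kept under the pair, but the departure of -0.35 ± 0.12 did not pass (adjusted p = 0.0717). NHSL1 was low, at 1.84 ± 0.12 CPM with DMSO and 1.18 ± 0.61 CPM with Ibr + AS, with a departure of -0.36 ± 0.43 (adjusted p = 0.777). The markers TCF4 and PMEL had departures of -0.10 ± 0.15 and -0.39 ± 0.49, and neither passed.

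The same contrast was formed at 48 h and 72 h in libraries that had no part in the fit at 24 h. They come from the same passages, so they are not an independent repeat. At 48 h, 492 genes were called (2.92%), 2.11% upwards and 0.813% downwards, and at 72 h 525 (3.12%), 1.69% upwards and 1.43% downwards. Of the 168 genes higher at 24 h, 162 had a positive departure at 48 h, 80 of them called, and 131 had one at 72 h, 49 of them called. Of the 60 lower genes, 54 were negative at 48 h (29 called) and 50 at 72 h (21 called). Among all genes with at least 1 CPM, 75.1% kept the direction of 24 h at 48 h and 61.1% at 72 h. Over the 192 called genes of that level, Pearson's r of the departures was 0.811 between 24 h and 48 h and 0.638 between 24 h and 72 h, a description across genes that form separate upward and downward clusters.

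**Figure D5:**
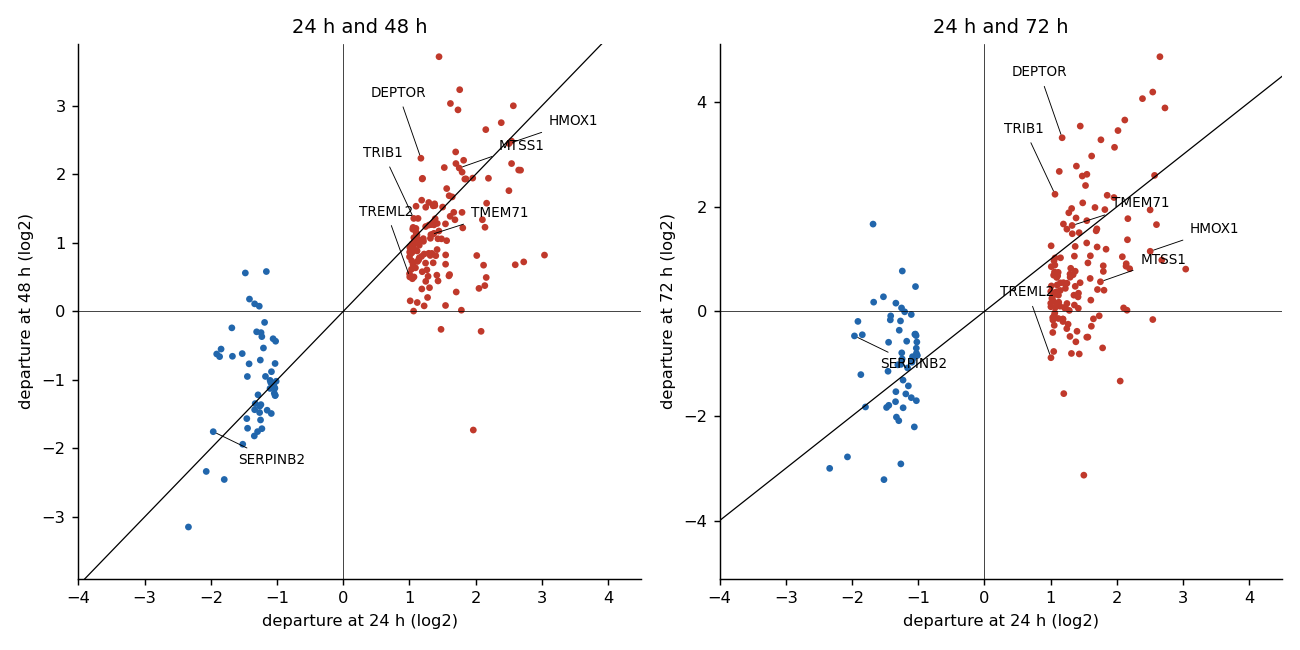
Departure at 48 h (left) and 72 h (right) against that at 24 h (log2) for the 192 called genes with at least 1 CPM, red where higher and blue where lower than the sum at 24 h. The line marks equal departures. At 48 h nearly all points keep their side, and at 72 h more of them scatter across 0.

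HMOX1 departed by 2.45 ± 0.21 at 48 h and 1.15 ± 0.26 at 72 h, and its mean under Ibr + AS was 58.3 and 42.3 CPM at these times beside 4.41 and 3.21 CPM with DMSO. MTSS1 departed by 2.09 ± 0.21 at 48 h and 0.57 ± 0.23 at 72 h, where the adjusted p was 0.112. TMEM71 departed at all times, by 1.12 ± 0.17 and 1.64 ± 0.21. MYC departed by 0.83 ± 0.11 and 0.89 ± 0.17. TNFRSF13C (-0.04 ± 0.17) and ATAD2 (-0.13 ± 0.17) did not pass at 72 h, after 0.64 and -0.88 at 48 h.

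A departure of the same sign can have another shape at a later time. TRIB1 departed by 1.36 ± 0.13 at 48 h and 2.24 ± 0.19 at 72 h. At 72 h, however, its mean was 107 CPM with DMSO, 28.01 with Ibr, 27.9 with AS and 35.4 with Ibr + AS, so the drugs lowered it and the pair lowered it less than their sum, whereas at 24 h only the pair had raised it. DEPTOR departed by 3.32 ± 0.40 at 72 h, with 3.55 CPM for DMSO, 1.41 for Ibr, 1.09 for AS and 4.55 for Ibr + AS. MYC at 72 h was at 274 CPM with DMSO, 228 with Ibr, 178 with AS and 272 with Ibr + AS, so the pair stood near DMSO and the single drugs below it.

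The change of the departure with time was tested in 1 fit of 35 libraries. Between 48 h and 24 h it passed both limits in 4 genes (0.0214%), none of them called at 24 h, and 9 genes passed the adjusted p (0.0482%). Between 72 h and 24 h it did so in 198 (1.06%), and 1.85% passed the adjusted p. Of the genes called at 24 h, 21 higher and 3 lower ones were among these 198, and 19 and 3 of them had moved towards or past 0. These genes were chosen for a large departure in the same 24 h libraries, and that choice by itself favours a move towards 0. Whether their departure faded was therefore not tested by these counts. Among named genes with a call, DEPTOR grew by 2.16 ± 0.60 (adjusted p = 0.0333) and TREML2 turned, by -1.90 ± 0.36 (adjusted p = 0.000262), to a departure of -0.89 at 72 h. SQSTM1 (0.74) and BYSL (-0.83) changed at the adjusted p, below the log2 limit.

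Additivity depends on the scale. In CPM, where the single changes are added as levels and not as folds, 237 of 10766 genes departed at the adjusted p (2.2%), 188 higher (1.75%) and 49 lower (0.455%), with limma on values relative to the gene's mean. Of the 192 called genes with at least 1 CPM, 139 of 139 higher and 52 of 53 lower ones kept their direction on that scale, and 79 passed its adjusted p. MTSS1 then exceeded the sum by 39.8 CPM (adjusted p = 0.0227), TMEM71 by 63.4 CPM (adjusted p = 0.0181), TRIB1 by 24.0 CPM (adjusted p = 0.00846) and MYC by 172 CPM (adjusted p = 0.0386). HMOX1 exceeded it by 31.7 CPM without passing (adjusted p = 0.266), and its Ibr + AS libraries had the widest spread of these genes relative to the mean. ATAD2 lay 155 CPM under the sum (adjusted p = 0.0237) and MCM5 179 CPM (adjusted p = 0.0377), while SERPINB2 (adjusted p = 0.104), CNKSR3, SMC1B and RGS22 did not pass.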

How the data were processed

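Poly-A RNA of CLBL-1 cells was sequenced as single-end reads, 3 libraries per group. The authors mapped the reads with STAR 2.7.5a to CanFam3.1 and deposited raw counts of reads per gene of Ensembl release 101 without normalization, and the strand column kept is not given in the sources used here. The table holds 30424 genes. All 12 columns at 24 h were used, and 0 per-sample columns were left unassigned. DMSO 24 h replicate 3 is given passage p126 in its title and p128 in its passage field, and p128 was used.

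Genes holding 2 or more reads in total across the fitted libraries entered the tests, run in R 4.3.3 with edgeR 4.0.16 (TMM factors, robust quasi-likelihood fit, passage and group as terms, Benjamini-Hochberg adjustment), with 6 residual degrees of freedom. The SE of an edgeR log2 change or departure is an approximation, its size divided by the square root of the quasi-likelihood F statistic. Limma 3.58.1 was used on the CPM scale and DESeq2 1.42.0 as an alternative. The fits at 72 h and over all times leave out Ibr 72 h replicate 3, an outlier in the study. Log2 CPM within passages was formed with a prior count of 1, and the scripts were first run on simulated data with known changes.

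Passages pair the libraries by the labels. With each group centred on its mean, libraries sharing a passage correlated with a median r of 0.124 (18 pairs, 10 above 0.1) and those of other passages with -0.0464 (36 pairs). Within groups, no pair of libraries agreed within sampling noise. The chi-square of their counts per degree of freedom was 26.9 and 26.1 for Ibr + AS replicate 1 against replicates 2 and 3. All other pairs gave 1.87 to 8.77. By the sample numbers in the header, the libraries at 24 h fall into 2 sequencing runs, which is an inference. Passage p128 is wholly the second run and cannot be told apart from it.

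Symbols come from the identifier lists of the study's supplement (1068 genes, names only), and no sequence is shown, as none was used here. Named genes have a symbol and at least 1 CPM: in each direction the 12 with the largest departure, those past both limits first, then those at the adjusted p, the 2 largest of each list, genes chosen for the study (MYC, MYB, BCL2, PIK3R1, NHSL1, DSE, HMOX1), and of genes without a symbol the 2 largest in each direction. Of the genes under this rule, 1 is not reported here. Other list members are named where they passed the adjusted p. Genes, lists and tests were chosen with earlier results of these data known.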

Additional observations from a re-analysis of the deposited data

Results flagged for a closer look

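DEPTOR is listed because its departure from additivity differed between times, by 2.16 ± 0.60 on the log2 scale (72 h minus 24 h, adjusted p = 0.0333, fit of 35 libraries). The departure was 1.17 at 24 h and 3.32 at 72 h, and DMSO rose from 1.69 to 3.55 CPM between these times.

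TREML2 is listed for the same reason, with a difference of -1.90 ± 0.36 (adjusted p = 0.000262). Its departure was 1.00 at 24 h and -0.89 at 72 h, where Ibr was at 9.81 CPM, AS at 5.45 CPM and Ibr + AS at 8.47 CPM beside 3.36 CPM with DMSO.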

How the results depend on the processing

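All 228 called genes kept the direction of their departure in each edgeR and DESeq2 fit in which they were tested, and the calls themselves moved. DESeq2 called 152 genes, 111 of them higher and 62 short of or against the sum, and gave 19 genes for AS, 319 for the departure at 72 h and 10 for the difference between 48 h and 24 h. The fit of 35 libraries gave 109 higher genes. Without the replicate block for passage, the counts were 143 in all, 105 higher, 38 lower and 73 short of or against the sum, 36 for AS, and 0 for the difference between 48 h and 24 h in edgeR, where 1040 genes had an unadjusted p under 0.05 (5.57%). A test against the log2 limit itself (glmTreat) left 12 genes, 9 higher and 3 lower, 8 beyond and 4 short of or against the sum. The adjusted p alone gave 1153, 663 and 490 genes, 647 beyond and 506 short of or against the sum.

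Leaving out each replicate in turn gave 157 to 274 called genes, 92 to 204 higher, 65 to 70 lower, 82 to 106 beyond and 75 to 184 short of or against the sum. It gave 165 to 250 genes for Ibr, 35 to 71 for AS, 322 to 476 for the departure at 72 h, 45 to 68 of the 24 h calls repeated at 72 h, 9 to 39 for the difference between 48 h and 24 h and 109 to 565 for that between 72 h and 24 h. The share of higher genes among the calls was 73.7%, and 58.6% without replicate 2 and 63.6% without replicate 3. Of 56 named genes, 10 lost the adjusted p without the block, 17 without replicate 2, 14 without replicate 3 and 8 with DESeq2. The median departure of the cholesterol list was 0.0059 and became -0.12 without replicate 2, and that of antigen presentation was -0.0081 and became 0.055 without replicate 3. A term for sequencing run could not be fitted at 24 h, and in the fit of 35 libraries it gave 171 called genes. Depth limits the low genes: in 15 higher and 3 lower calls all libraries of some group held 3 reads or fewer. The cause of these changes was not tested.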
